A study of Homo sapiens with 14 samples.

Results

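The genes described here are 47 members of the TGF-beta and bone morphogenetic protein (BMP) pathway, measured by 62 probes of a whole-genome expression array in glioblastoma cells after knockdown of a long noncoding RNA. A probe was taken when its transcript, as the array's annotation gives it, belonged to a listed ligand, latency protein, receptor, secreted regulator, SMAD, ubiquitin ligase, nuclear corepressor or target. The arrays held 50599 non-control probes, and their annotation named 20992 genes in all. Of the members, 37 had 1 probe and 10 had several. A gene is described by its brightest probe, and other probes are given for some genes.

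The study silenced LINC00152, also called CYTOR, by siRNA in A172 and U87-MG, established lines grown from human glioblastomas, to ask which genes depend on this RNA in each line. Control cells received a negative control siRNA of medium GC content without an RNA target, and knockdown cells an siRNA against exon 1 of LINC00152, both at 20 pmol/ml and both by electroporation. All cells were then kept in DMEM with fetal calf serum and antibiotics and harvested after 40 h according to the sample descriptions, while the study's methods give a later time. Total RNA of 3 control and 3 knockdown cultures of A172 and of 4 and 4 cultures of U87-MG was labelled with Cy3 and hybridised to 1 array each, and the samples carry replicate numbers that pair a control with a knockdown. The model is limited to tumour lines in culture and to 1 siRNA against the target. In such bulk RNA, fewer cells of a type and less RNA per cell cannot be told apart.

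TGF-beta, activins and BMPs are secreted dimers that bring together type II and type I serine/threonine kinase receptors. The activated type I receptors phosphorylate SMAD2 and SMAD3 on the TGF-beta and activin side or SMAD1, SMAD5 and SMAD9 on the BMP side, and these enter the nucleus with SMAD4. In glioblastoma, TGF-beta signalling is known for its part in invasion and in the upkeep of stem-like cells, whereas BMPs can push such cells towards an astrocytic fate.

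Levels are given as log2 of the scanner's processed signal minus the 75th percentile of the same array, so that 0 is the level of that percentile. A probe counted as measured on an array when the scanner software called its spots well above background. This held for 57.3% to 69.0% of the spots on the A172 arrays and for 35.7% to 48.3% on the U87-MG arrays. The dimmest arrays were the control and the knockdown of U87-MG replicate 3, with 35.7% and 40.4%. All U87-MG arrays lay on 1 slide and the A172 arrays on 3 others, each of which held a control and knockdown pair of the same number. The lines can therefore not be told apart from slide and scan, and in A172 the pair and the slide are the same thing.

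Markers fixed for the check of cell identity had a probe for 17 of 18 genes. The glial and glioblastoma markers NES, VIM, CD44 and ALDH1L1 were well above background on every array of both lines. SOX2 was measured in A172 only, and the astrocyte markers GFAP and S100B were at or near background in both lines. The glial list also held OLIG2 and AQP4. By any probe, 6 of its 9 genes were well above background on every A172 control array and 4 on every U87-MG control array. Among markers of other cell types, the leukocyte genes CD14 and PTPRC and the endothelial gene CDH5 were well above background on every array. The other endothelial gene listed was so on every A172 array and on no U87-MG array. The epithelial genes CDH1 and EPCAM were not measured apart from EPCAM on 1 A172 control array. The summed glial marker level, in log2, was 7.89, 8.22 and 7.83 in the A172 controls and 7.68, 8.02 and 7.60 after knockdown. In U87-MG it was 9.53, 9.62, 8.67 and 9.42 in the controls and 9.59, 9.68, 9.12 and 9.44 after knockdown. CD44, a hyaluronan receptor, fell in A172 within pairs, by 1.13 on the log2 scale (limma, adjusted p = 0.00807 with the replicate block and 1.00 without it), although its dimmer probe gave −0.24. KRT14, a keratin of the epithelial list, gave 0.71 for its brightest probe in A172, uncalled, and rose by 3.35 and 3.36 for its other probes (limma adjusted p = 0.0200 and 0.010 without the block). The summed epithelial level was −1.25, −0.35 and −1.43 in the A172 controls and −1.19, −0.39 and −0.88 after knockdown. The part of these markers in the results on the pathway was not tested.

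The targeted RNA was checked first. Its probe read 2.63, 2.44 and 2.48 in the A172 controls and 0.23, −0.42 and −0.10 after knockdown. In U87-MG it read 1.94, 1.83, 1.71 and 1.82 in the controls and −1.21, −0.88, −0.74 and −0.79 after knockdown. The groups lay far apart in both lines, with a log2 fold change of −2.61 (SE 0.24, limma adjusted p = 0.000731) in A172 and −2.73 (SE 0.21, limma adjusted p = 4.96e-05) in U87-MG. The sample descriptions name an siRNA against exon 1 without its sequence. The study's supplement lists the following 25-base siRNA against exon 1 as number 1, the one that its figures name for both lines, and whether the arrays used it is not stated in the sample descriptions.
siLINC00152 number 1: tgcctgtcttcagatcttcacagca

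Most of the pathway was measured on every A172 control array, but fewer of its genes were on every U87-MG control array. In A172, 35 of the 47 genes were well above background on every control array, 6 on some and 6 on none. In U87-MG the same counts were 20, 13 and 14. After knockdown they were 35, 7 and 5 in A172 and 26, 9 and 12 in U87-MG. On all 14 arrays 20 genes were measured, and 4 genes were measured on none, namely the ligand BMP2, the receptors ACVR2B and BMPR1B and the ubiquitin ligase SMURF1. Since the U87-MG arrays were dimmer, a gene missing there was not shown to be absent.

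The knockdown was compared with the control in each line by limma. A probe was tested when 3 or more arrays of either group had it well above background, and it was called when its adjusted p was below 0.2 and its log2 fold change exceeded 0.5 in size, the thresholds that the study names. Of the members, 36 genes could be tested in A172 and 29 in U87-MG, of which 34 and 28 passed through both groups. Without regard to the pairs, limma called 0 of the 36 in A172, where 0.183% of all 28338 probes were called, and 0 of the 29 in U87-MG, where 0.0502% of 21921 were called. At an unadjusted p under 0.05 there were 3 member genes in A172 and 2 in U87-MG, next to 2.28% and 2.31% of all probes tested. Arrays of the same number mostly resembled each other beyond their group. In U87-MG, control 1 correlated less with its own knockdown (0.373) than with knockdown 2 (0.403). The comparison was also made within pairs, with the replicate number as a block. This fit called 4 genes in A172, against 3.26% of all probes, and 5 in U87-MG, against 4.19%. Of these, 3 and 5 had passed through both groups, and INHBA in A172 through the knockdown group alone.

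In A172 the genes called within pairs were BMP4, which rose, and INHBA, called as higher with that reservation, next to 1.09% of all probes called as higher, and TGFB1 and BMPR1A, which fell, next to 2.17% called as lower. In U87-MG they were LTBP1 and TGFBR2, which rose, next to 2.12% of all probes, and TGFB1, BMPR1A and SMAD3, which fell, next to 2.07%. At an unadjusted p under 0.05 there were 9 member genes in A172 and 7 in U87-MG within pairs, where 10.7% and 16.9% of all probes stood. The members tested had a median log2 fold change of −0.10 in A172, next to 0.02 for all probes, and of 0.08 in U87-MG, next to −0.02. Without their sign, the medians were 0.24 and 0.22 for the members and 0.14 and 0.17 for all probes.

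**Figure D1:**
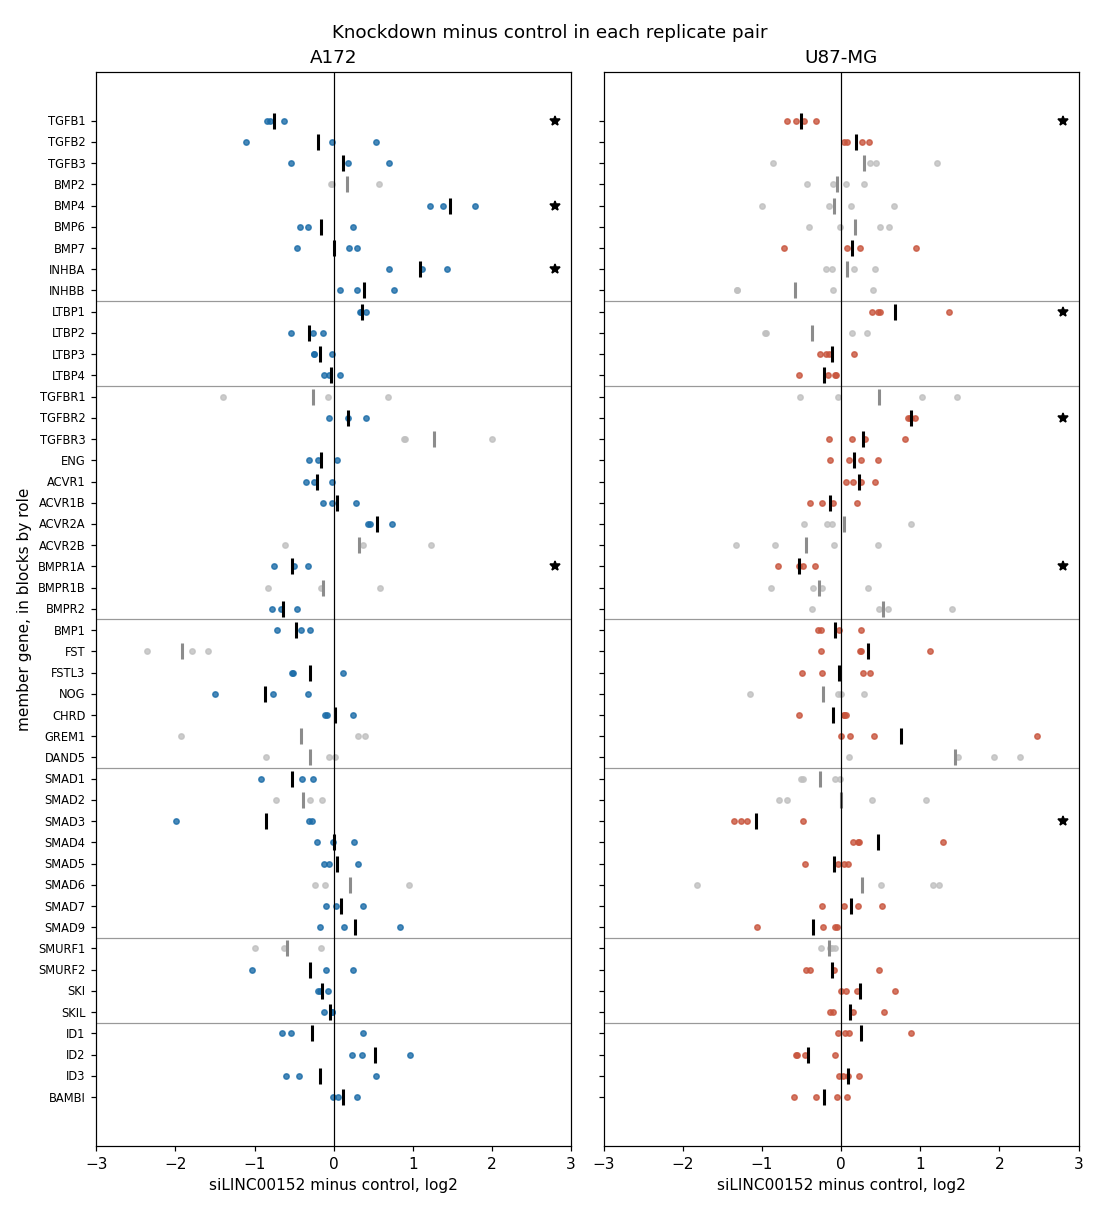
Difference between siLINC00152 and control in each replicate pair (points) and its mean (bars), in log2, for the brightest probe of every member gene in A172 (3 pairs) and U87-MG (4 pairs). Grey marks genes that were too dim to be tested, and stars mark the genes called within pairs, 4 in A172 and 5 in U87-MG.

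Among the ligands, TGFB1, which encodes the most widely expressed TGF-beta isoform, read 1.90, 1.93 and 1.78 in the A172 controls and 1.1, 1.30 and 0.94 after knockdown. Every knockdown array lay below every control, and the pairs differed by −0.80, −0.63 and −0.84. TGFB1 thus fell 1.69-fold in A172 within pairs (log2 fold change −0.76, SE 0.12, limma adjusted p = 0.0371 with the block and 0.784 without it). The blocked adjusted p ran from 0.000589 to 0.286 over 7 alternatives, and the call was lost without pair 3 (0.286). In U87-MG the gene read 1.52, 1.60, 1.17 and 1.63 in the controls and 0.94, 1.13, 0.85 and 0.95 after knockdown. These groups did not overlap either, although the lowest control, replicate 3, lay only slightly above the highest knockdown array. The fall in U87-MG was 1.43-fold within pairs (log2 fold change −0.51, SE 0.11, limma adjusted p = 0.0899 with the block and 1.00 without it), close to the fold threshold. It was called in only 1 of the 4 fits that left out a pair, the one without pair 3, and the value moved to −0.32 with a normexp background correction. The difference between the lines, −0.24 (SE 0.30, and 0.16 with the block), was not called (limma adjusted p = 1.00, and 0.70 with the block).

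BMP4, a BMP ligand with roles in neural patterning, read −2.88, −2.15 and −2.37 in the A172 controls and −1.49, −0.93 and −0.58 after knockdown. All knockdown arrays lay above all controls, with every array well above background. Within pairs BMP4 rose 2.76-fold (log2 fold change 1.47, SE 0.28, limma adjusted p = 0.0706 with the block and 0.455 without it). The blocked call was lost whichever pair was left out (adjusted p 0.273 to 0.411), and the normexp correction gave a log2 fold change of 0.74. In U87-MG no array had BMP4 well above background, so the lines were not compared for it.

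INHBA encodes the subunit of activin A. It read −4.15, −3.21 and −3.15 in the A172 controls, of which 2 were well above background, and −3.45, −2.09 and −1.72 after knockdown, all well above background. It thus entered the test through the group in which it is higher, and the call carries little weight. Each knockdown array lay above its own control, but replicate 1 was low in both groups, so that the groups overlapped. The fit within pairs called it as higher (limma adjusted p = 0.0400 with the block and 1.00 without it), with a size that is not exact. In the 2 pairs with both arrays well above background the differences were 0.70 and 1.43. Of the 3 fits without a pair, only that without pair 1 kept the call, and the normexp correction gave 0.37, below the fold threshold. In U87-MG it was well above background on 1 of 8 arrays.

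The other ligands showed no called difference. TGFB2 and TGFB3, the other isoforms of TGF-beta, had log2 fold changes of −0.20 and 0.11 in A172, with pairs on both sides of 0. BMP6 gave −0.17 and BMP7 0.01 in A172, where the other BMP7 probes gave 0.48 and −0.53. INHBB, the subunit of activin B, gave 0.38. In U87-MG, TGFB2 gave 0.18 and BMP7 0.14, and the remaining ligands were too dim to be tested.

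Of the latency proteins, LTBP1, LTBP2, LTBP3 and LTBP4 are latent TGF-beta binding proteins, of which LTBP1, LTBP3 and LTBP4 tie latent TGF-beta to the matrix. LTBP1 read 2.29, 2.16, 0.96 and 2.68 in the U87-MG controls and 2.75, 2.65, 2.33 and 3.07 after knockdown. The control of replicate 3 lay well below the other controls, and its pair gave the largest difference, 1.37, while the others gave 0.47, 0.50 and 0.39. LTBP1 rose 1.60-fold within pairs (log2 fold change 0.68, SE 0.17, limma adjusted p = 0.126 with the block and 1.00 without it). Without pair 3 it was 0.45, under the fold threshold, and none of the 4 fits that left out a pair called it. In A172 the pairs gave 0.33, 0.35 and 0.41, and LTBP1 was not called (limma adjusted p = 0.626 with the block). The difference between the lines was −0.32 (SE 0.49, limma adjusted p = 1.00, and SE 0.26, adjusted p = 0.740 with the block). The dimmer LTBP1 probe gave 0.75 in U87-MG and was not called (limma adjusted p = 0.247 with the block). Its pair 3 gave 1.93, with a control not well above background. In A172 this probe gave 0.39, with pairs of 0.82, 0.34 and −0.003. LTBP2, LTBP3 and LTBP4 lay between −0.31 and −0.04 in A172. In U87-MG, LTBP3 gave −0.12 and LTBP4 −0.21, and LTBP2 was not measured.

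Among the receptors, TGFBR2 is the type II receptor that binds TGF-beta. It read 0.96, 0.94, 0.93 and 1.56 in the U87-MG controls and 1.83, 1.86, 1.78 and 2.44 after knockdown. Replicate 4 was the highest of each group, and every knockdown array lay above every control. The pairs differed by 0.87, 0.93, 0.84 and 0.88. TGFBR2 rose 1.84-fold within pairs (log2 fold change 0.88, SE 0.11, limma adjusted p = 0.0212 with the block and 1.00 without it). This was the member call that held in all 8 alternatives tried on the blocked fit, with adjusted p from 0.00348 to 0.133. In A172 the receptor read 3.60, 4.74 and 4.60 in the controls and 3.55, 4.93 and 5.01 after knockdown, with pairs on both sides of 0 (log2 fold change 0.18, limma adjusted p = 0.797 with the block). The lines were not shown to differ in this (difference −0.70, SE 0.54, limma adjusted p = 1.00, and SE 0.16, adjusted p = 0.301 with the block).

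BMPR1A, a type I receptor for BMPs, had 5 probes. The brightest read 1.48, 0.62 and 1.22 in the A172 controls and 0.72, 0.30 and 0.71 after knockdown. In U87-MG it read 0.06, 0.14, −0.34 and 0.75 in the controls and −0.42, −0.66, −0.67 and 0.22 after knockdown. The groups overlapped in both lines because the replicates differed among themselves, but each knockdown array lay below its own control. BMPR1A fell 1.44-fold in A172 within pairs (log2 fold change −0.53, SE 0.14, limma adjusted p = 0.178 with the block and 1.00 without it). It fell 1.45-fold in U87-MG (log2 fold change −0.54, SE 0.12, limma adjusted p = 0.107 with the block and 1.00 without it). Over the 5 probes, which share the same RNA and are no replicates, 12 of 15 pair values in A172 and 11 of 20 in U87-MG had both arrays well above background, and the knockdown was lower in all of these. The blocked fit called 2 of the 4 probes tested in A172 and 2 of 3 in U87-MG. The calls were near both thresholds. Leaving out any pair ended the A172 call, and 1 of 4 such fits kept that of U87-MG, the one without pair 3. The deposited values ended both calls (adjusted p = 0.211 in A172; log2 fold change −0.49 in U87-MG), as did the normexp correction, with −0.47 in A172 and −0.30 in U87-MG.

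TGFB1 and BMPR1A were the members called as lower in both lines, and the 250 bases before their start sites are shown for that reason, from the RefSeq annotation of GRCh38.p14, with the gene's own strand read 5′ to 3′. The table held 42 of the 47 members. Each sequence was searched on both strands for CAGAC, which is part of a known SMAD binding element, and for GGCGCC, a GC-rich SMAD motif that reads the same on both strands. Neither promoter held either motif, so no letters are in capitals.
TGFB1 promoter, chr19:41353923-41354172, minus strand: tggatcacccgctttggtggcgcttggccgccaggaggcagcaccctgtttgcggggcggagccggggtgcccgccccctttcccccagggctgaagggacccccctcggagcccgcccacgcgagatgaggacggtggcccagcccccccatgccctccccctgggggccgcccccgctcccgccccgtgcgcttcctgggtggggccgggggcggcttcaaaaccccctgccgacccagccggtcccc
BMPR1A promoter, chr10:86755513-86755762, plus strand: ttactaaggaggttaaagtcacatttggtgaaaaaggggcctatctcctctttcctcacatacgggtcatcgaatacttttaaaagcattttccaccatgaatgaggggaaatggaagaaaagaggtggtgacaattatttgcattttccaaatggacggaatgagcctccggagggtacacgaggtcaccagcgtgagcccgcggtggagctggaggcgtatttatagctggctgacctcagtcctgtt
Of all 35116 such windows, 38.0% held CAGAC and 16.4% held GGCGCC. Among the 74 windows of the members the shares were 37.8% and 25.7%. The missing matches say only that these letters do not occur in these windows.

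Among the other receptors no gene was called. ACVR2A, a type II receptor for activins and BMPs, read −2.14, −2.58 and −2.45 in the A172 controls and −1.71, −2.12 and −1.72 after knockdown. Its groups did not overlap, but the fit did not call it (log2 fold change 0.54, limma adjusted p = 1.00, and 0.481 with the block). BMPR2, the type II receptor specific to BMPs, was lower in all 3 A172 pairs, by −0.67, −0.78 and −0.46, and was not called (log2 fold change −0.64, limma adjusted p = 0.486 with the block). TGFBR3, the co-receptor betaglycan, is named after its values were seen: it was well above background on 1 array of each A172 group, its pairs gave 2.00, 0.89 and 0.90, and it was too dim to be tested there, so these sizes are not exact. With all probes tested, an alternative chosen after seeing the data, the blocked fit called it (limma adjusted p = 0.183), a call that rests on arrays near background. In U87-MG, TGFBR3 gave 0.27, with most of it from pair 3 (0.81). ENG, a co-receptor known from endothelium, gave −0.16 in A172 and 0.17 in U87-MG. ACVR1 and ACVR1B, type I receptors, gave −0.20 and 0.04 in A172 and 0.22 and −0.14 in U87-MG, where the dimmer ACVR1 probe gave −0.14. TGFBR1, the type I receptor for TGF-beta, was measured on 1 array of each A172 group and on none of U87-MG, so that its response could not be followed.

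**Figure D2:**
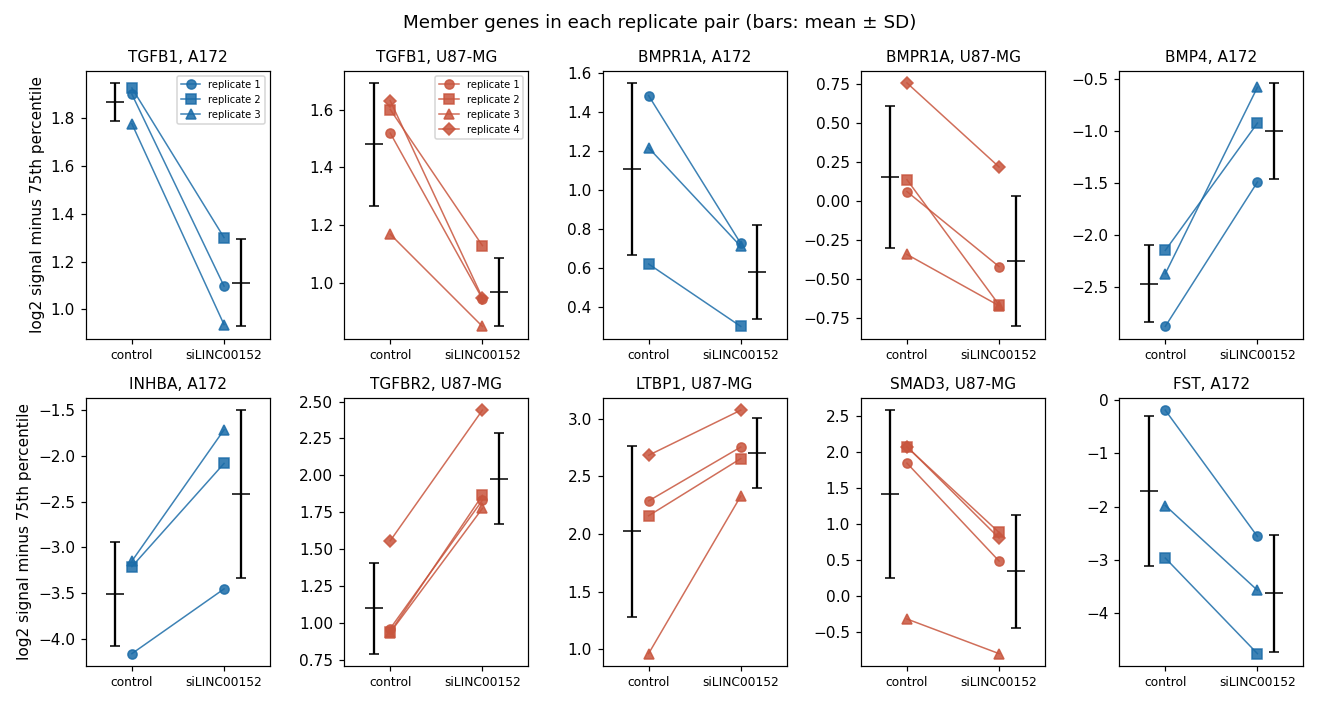
Levels of the genes called within pairs, and of FST in A172, where 2 of 3 knockdown arrays were not well above background, in control and siLINC00152 arrays, as log2 signal minus the array's 75th percentile; each line joins the 2 arrays of a replicate pair, and bars give the mean and SD of 3 (A172, blue) or 4 (U87-MG, red) arrays. For TGFBR2 in U87-MG the 4 lines run nearly parallel, with differences from 0.84 to 0.93, whereas replicate 3 stands apart for LTBP1 and SMAD3.

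None of the secreted regulators was called. FST encodes follistatin, which binds and blocks activins, and it is named after its values were seen. It read −0.20, −2.96 and −1.98 in the A172 controls and −2.56, −4.75 and −3.57 after knockdown. Only 2 controls and 1 knockdown array were well above background, so the gene was not tested. The pairs differed by −2.36, −1.79 and −1.59, of which only pair 1 had both arrays well above background, so the sizes are not exact. The groups overlapped because the replicates lay far apart. With all probes tested, as for TGFBR3, the blocked fit called it (limma adjusted p = 0.0511), again mostly on arrays near background. In U87-MG, FST gave 0.34, with pairs of −0.26, 0.24, 1.12 and 0.24 (limma adjusted p = 0.459 with the block).

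NOG encodes noggin, a BMP antagonist. In A172 it read 1.08, 2.18 and 2.73 in the controls and 0.75, 1.41 and 1.23 after knockdown. Each knockdown array lay below its control, by −0.33, −0.77 and −1.5, but the groups overlapped and the gene was not called (log2 fold change −0.87, limma adjusted p = 0.319 with the block). With the block and the normexp correction together it would have been (log2 fold change −0.73, adjusted p = 0.0132); its blocked adjusted p ran up to 0.883 over the alternatives. GREM1, gremlin, another BMP antagonist, gave 0.75 in U87-MG (limma adjusted p = 0.459 with the block). All 4 pairs were above 0 (0.11, 0.00, 2.48 and 0.41), but most of the value came from replicate 3, whose control read −1.86, not well above background, while the others read 1.68, 1.92 and 2.42. It was 0.18 without replicate 3, and −0.22 without this control array alone, which keeps the low knockdown array of the same number. DAND5, an antagonist of nodal and BMPs, is also named after its values were seen, and it may be among the members because the study lists it for U87-MG, so its direction is not independent evidence. In U87-MG it read −4.14, −4.41, −3.31 and −4.51 in the controls and −1.88, −2.93, −3.21 and −2.59 after knockdown, with 1 of the 8 arrays well above background, and it was not tested. With all probes tested, as for TGFBR3 and FST, the blocked fit did not call it (log2 fold change 1.44, limma adjusted p = 0.248). The study's list holds DAND5 as regulated in U87-MG, with a larger rise. BMP1, a protease that cleaves the BMP antagonist chordin, gave −0.48 in A172 and −0.08 in U87-MG. CHRD, chordin itself, gave 0.02 and −0.10, and FSTL3, a follistatin-like activin binder, gave −0.31 and −0.02.

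SMAD3, a receptor-regulated SMAD of the TGF-beta and activin branch, read 1.85, 2.07, −0.31 and 2.08 in the U87-MG controls and 0.49, 0.89, −0.79 and 0.81 after knockdown. Replicate 3 was low in both groups, and the other knockdown arrays lay well below the other controls. SMAD3 fell 2.10-fold in U87-MG within pairs (log2 fold change −1.07, SE 0.29, limma adjusted p = 0.150 with the block and 1.00 without it). Only the fit without pair 3 kept the call among the 4 that left out a pair, with −1.27. Without the control array of replicate 3 alone, its low knockdown array kept, the unblocked value was −1.65, and the deposited values gave a blocked adjusted p of 0.208. In A172, SMAD3 read −0.26, −1.67 and −1.53 in the controls and −2.25, −1.94 and −1.84 after knockdown. These groups did not overlap, but pair 1 gave −1.99 and the others −0.27 and −0.31, and the gene was not called (log2 fold change −0.86, limma adjusted p = 0.395 with the block). The value was −0.29 without pair 1. The difference between the lines was 0.22 (SE 0.81, limma adjusted p = 1.00, and SE 0.44, adjusted p = 0.899 with the block).

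SMAD1, which serves the BMP branch, was lower in all 3 A172 pairs, by −0.92, −0.26 and −0.40, and was not called (log2 fold change −0.53, limma adjusted p = 0.280 with the block). It was measured on no U87-MG array. SMAD4, the common partner, gave 0.01 in A172 and 0.47 in U87-MG. The latter rested on pair 3 (1.28, against 0.22, 0.22 and 0.15), and the other SMAD4 probes gave 0.03 and −0.28 there. SMAD5, of the BMP branch, gave 0.04 and −0.09. SMAD9, also of the BMP branch, gave 0.27 and −0.36, the latter mostly from pair 3 (−1.07). SMAD7, an inhibitory SMAD that TGF-beta itself induces, gave 0.10 and 0.13. SMAD2 was measured on 2 arrays of each A172 group and 1 of each U87-MG group. SMAD6, the other inhibitory SMAD, was measured on 1 array in all.

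Among the ubiquitin ligases, corepressors and targets, SMURF2, a ligase that marks receptors and SMADs for degradation, gave −0.30 in A172 and −0.11 in U87-MG. SKI and SKIL, corepressors that bind SMADs on DNA, gave −0.15 and −0.05 in A172 and 0.23 and 0.11 in U87-MG. None was called. ID1, ID2 and ID3 encode inhibitors of basic helix-loop-helix factors and are classic BMP targets, and BAMBI is a decoy receptor that the pathway induces. ID1 gave −0.27 in A172 and 0.25 in U87-MG, ID3 −0.17 and 0.08, and BAMBI 0.11 and −0.22, all with pairs on both sides of 0.

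ID2 stood on different sides in the lines. In A172 it read −0.10, −0.49 and −0.02 in the controls and 0.87, −0.27 and 0.34 after knockdown. In U87-MG it read 1.21, 1.24, 1.20 and 2.00 in the controls and 0.64, 0.68, 1.13 and 1.54 after knockdown. Each A172 pair was above 0 and each U87-MG pair below it, and the groups overlapped in both lines. Neither difference was called for this probe (log2 fold change 0.52 in A172 with a blocked limma adjusted p of 0.302, and −0.42 in U87-MG with 0.236). Without pair 1 the A172 value was 0.29. The dimmer ID2 probe gave 0.33 in A172. Its −0.51 in U87-MG was called by the fit within pairs (limma adjusted p = 0.110), close to the fold threshold. Neither array of its pair 3 (−0.46) was well above background. With all probes tested, the blocked fit did not call it (limma adjusted p = 0.29). The difference between the lines, 0.93 (SE 0.46, and 0.23 with the block) for the brighter probe, was not called (limma adjusted p = 1.00, and 0.332 with the block). Over all members, limma called 0 of 26 genes tested for a difference of the knockdown effect between the lines, where 0.00945% of all probes were called. At an unadjusted p under 0.05 there were 0, against 0.789% of all probes. With the block 0 were called, against 0.421% of all probes, and 3 had an unadjusted p under 0.05, against 8.31%.

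The remaining members tested were all uncalled. In A172 these 26 genes had log2 fold changes from −0.48 to 0.38, 12 above and 14 below 0, with blocked adjusted p from 0.254 to 0.999. In U87-MG the 23 remaining genes ran from −0.42 to 0.47, 12 above and 11 below 0, with 0.236 to 0.953.

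Other genes of the pathway, listed for comparison, had a probe for 81 of 82. By their brightest probes limma called 0 of them in either line without the block, and 2 in A172 and 0 in U87-MG had an unadjusted p under 0.05. Within pairs, 2 of the 49 tested rose in A172 and 4 fell, next to 1.09% and 2.17% of all probes. In U87-MG 1 of 41 rose and 1 fell, next to 2.12% and 2.07%. CCN2, a matricellular TGF-beta target, rose in both lines, by 0.82 in A172 and 0.83 in U87-MG on the log2 scale (limma adjusted p = 0.139 and 0.0896 with the block). CDKN1A, the cell cycle inhibitor p21, fell in both, by 0.91 and 0.78 (limma adjusted p = 0.0731 and 0.0825). THBS1, thrombospondin-1, which can activate latent TGF-beta, rose by 0.57 in A172 (limma adjusted p = 0.127). KLF10 and BHLHE40, transcription factors that TGF-beta induces, fell there by 0.97 and 0.82 (limma adjusted p = 0.0159 and 0.0298). The other gene that fell in A172 was ACTA2, smooth muscle actin, by 0.58 (limma adjusted p = 0.170), named after its value was seen to complete the count. All ligands, receptors, SMAD regulators and BMP targets of these lists were uncalled in both lines by their brightest probes.

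The control arrays of the lines were compared for the level of the pathway before the knockdown, with the reservation that line and slide cannot be told apart. A probe was tested here when it had been tested in either line. Limma called 24 of 39 members, 11 higher in A172 and 13 lower, where 54.4% of all probes were called, 26.7% as higher and 27.6% as lower. Of the 24, 17 were well above background on 3 or more controls of each line, so the other 7 differences are less exact. Of these 7, TGFB2, BMPR2, NOG and SMAD1 were higher in A172 and passed through its controls alone. GREM1 and TGFBR3 were higher in U87-MG and passed through those controls alone. Each entered through the group in which it is higher, so these calls carry little weight. Since BMPR2 and SMAD1 were measured on no U87-MG control, A172 was at least 1.91-fold and 1.12-fold higher for them. INHBA, the last of the 7, passed through the A172 knockdown arrays alone and was measured on no U87-MG control, so its call carries no weight. NOG was at least 15.0-fold higher in A172, since no U87-MG control had it well above background. Leaving out single controls, the NOG bound ran from 11.6-fold to 20.6-fold. BAMBI was 13.1-fold higher in A172 (log2 difference 3.71, SE 0.43, limma adjusted p = 2.11e-05) and TGFBR2 9.31-fold (3.22, SE 0.38, limma adjusted p = 2.43e-05). BMP1 and FSTL3 followed, with log2 differences of 2.74 and 2.72.

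On the other side, LTBP1 was 10.6-fold lower in A172 (log2 difference −3.41, SE 0.35, limma adjusted p = 6.53e-06). Of the members lower in A172, GREM1 had the largest fitted difference by its brightest probe, −4.49 (SE 0.90, limma adjusted p = 0.00164). Only 2 of 3 A172 and 3 of 4 U87-MG controls measured it, so it passed through U87-MG alone and the value is not exact. By its other probe, not measured in the A172 controls, GREM1 was at least 8.46-fold lower in A172. Leaving out single controls, this bound ran from 5.93-fold (U87-MG control 4) to 15.8-fold (U87-MG control 3, which did not measure it). TGFBR3 gave −3.05, also through U87-MG alone and not exact, with 1 of 3 A172 and 3 of 4 U87-MG controls well above background. SMAD3 gave −2.57 and SMURF2 −2.28. TGFB1 was not called (log2 difference 0.39, SE 0.21, limma adjusted p = 0.163), as its fold stayed under the threshold.

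**Figure D3:**
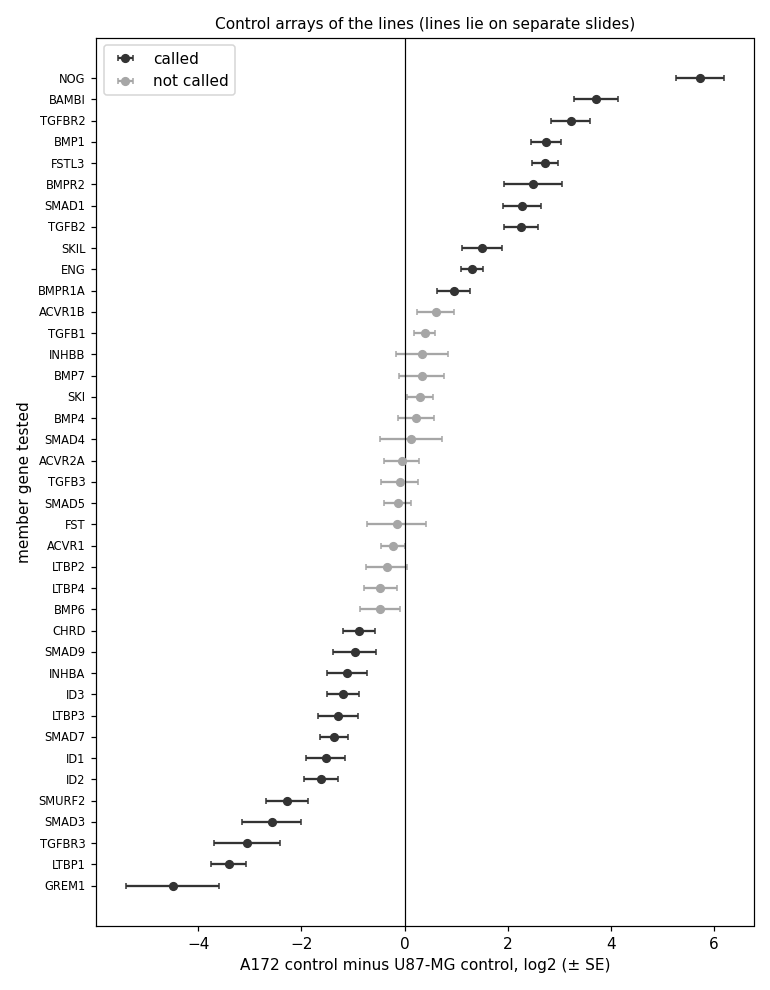
Difference between A172 and U87-MG control arrays in log2 for the 39 member genes tested (points; bars are the SE of the fit over 3 and 4 arrays), ordered by size. Dark points are called, 11 higher and 13 lower in A172, of which 17 passed through the controls of both lines. TGFB2, BMPR2, NOG and SMAD1 passed through A172 controls alone, GREM1 and TGFBR3 through U87-MG controls alone, and INHBA through neither. The point of NOG is a fitted value, and its bound of 3.90 is what the dim U87-MG arrays allow.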

How the data were processed

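Total RNA of 14 cultures was measured on Agilent one-colour arrays, scanned and extracted with Feature Extraction 11.5.1.1. The scanner tables deposited by the authors give the processed signal as an intensity, background-subtracted and not normalised between arrays. The deposited series values are on the log2 scale, normalised by the authors so that every array has the same distribution. Here, spots called non-uniform or population outliers were left out, the spots of a probe averaged, log2 taken and the array's 75th percentile subtracted. A probe was tested when a share of 0.5 or more of its spots was well above background on 3 or more arrays of the control or the knockdown group of a line. The comparison of the lines' controls took probes tested in either line, and the difference of the knockdown effects those tested in both. All arrays were fitted together with limma 3.58.1 in R 4.3.3 (tables: pandas 2.3.3, python 3.11.15), and p-values were adjusted by Benjamini-Hochberg over all probes tested. The number of arrays limits the precision.

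After removal of group means, same-number control and knockdown arrays correlated at 0.792, 0.794 and 0.675 in A172 and at 0.373, 0.569, 0.857 and 0.864 in U87-MG, across probes. In U87-MG, control 1 with knockdown 2 (0.403) and control 2 with knockdown 1 (0.411) exceeded the 0.373 of pair 1. A second fit therefore took cell line by replicate number as a block; with the settings above, every knockdown call of a member rests on it.

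Members and lists were chosen with earlier results of these data known. Members named with full values are those called in either line with or without the block and those that differ between the lines. Members measured on every array of a group were also named when all pairs went the same way with a mean beyond 0.5. The 5 largest differences each way between the controls were named too. From each other list, called genes were named, at most 3 each way. Alternatives were another background correction, quantile normalisation, the deposited values, other filters, kept outlier spots, each line by itself, any probe of a gene, and leaving out arrays or pairs. Groups left with few arrays are assumed to vary like the others.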

Additional observations from a re-analysis of the deposited data

Results flagged for a closer look

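An outlier test at the level of about 1 in 20 was applied to the named members in groups of 4 arrays, and 5 of 36 groups were past it, while chance alone gives about 1 in 20. In the U87-MG controls, ID2 read 2.00 in replicate 4 against 1.20 to 1.24 in the others. TGFBR2 read 1.56 in the same array against 0.93 to 0.96. TGFBR3 read −1.25 there against −1.74 to −1.68. After knockdown, TGFBR2 read 2.44 in replicate 4 against 1.78 to 1.86. SMAD3 read −0.31 in control replicate 3 against 1.85 to 2.08.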

How the results depend on the processing

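Without the block no named member was called; of 290 alternative values, 279 stayed uncalled on the same side of 0, 10 passed the threshold, 9 of them by the block, and 1 changed sign uncalled (GREM1 in U87-MG, from 0.75 to −0.22 without control 3). With the block, the genes called had 68 alternatives, of which 38 kept the call and 30 lost it. With those not called there were 118, where 1 gained a call (NOG) and no sign turned. The blocked call of TGFBR2 in U87-MG held in all 8 of its alternatives.

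The 52 probes called in A172 became 133 with the normexp correction, 34 without a filter, 14 with A172 fitted by itself and 924 with the replicate block, and 4 to 40 without single arrays or pairs. The 11 probes of U87-MG became 4 with normexp, 918 with the block and 5 to 17 without single arrays or pairs. The 0 members called in A172 became 1 with normexp (TGFB1, adjusted p = 0.115) and 4 with the block. The 0 of U87-MG became 5 with the block. With the block, the 4 members of A172 became 3 with normexp, 3 with the deposited values, 5 without a filter (chosen after seeing the data; FST and TGFBR3 gained, BMPR1A lost at adjusted p = 0.367) and 0 to 2 without single pairs. The 5 of U87-MG became 2 with normexp, 3 with the deposited values, 1 without a filter (TGFBR2) and 1 to 4 without single pairs. The cause was not tested. By brightest probes the block changed no other call of members. The 24 members that differed between controls ran from 23 to 30, and the LINC00152 probe was called under every setting.

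Limits: with 3 or 4 arrays a group, leaving out a pair leaves 2 or 3. U87-MG arrays were dimmer and fewer members were tested there, though the part of dimness in this was not tested. Values near background shrink with normexp, whose offset pulls dim signals together.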

Other observations

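U87-MG replicate 3 stood apart for several members. Of 39 member probes tested in U87-MG, 8 (20.5%) lay more than 1.5 log2 units below the mean of the other replicates on both the control and the knockdown array of replicate 3, next to 4.75% of all 21921 probes tested. They were 1 probe each of LTBP1, ACVR1, SMAD3 and ID2, and 2 each of BMPR1A and GREM1. Only 1 of the 8 was well above background on the control array of replicate 3 and 3 on its knockdown array, so the gaps of most are not exact. The brighter ACVR1 probe was not among the 8.

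Probes of the same gene outside the members also differed. PMEPA1, which encodes an inhibitor of TGF-beta signalling, gave −0.35 in A172 for its brightest probe and −1.70 for another, which limma called without the block (adjusted p = 0.0839). THBS1 gave 0.57 and 0.99 in A172, both called within pairs.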
